A study of Mus musculus with 4 samples.

Results

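Solute carriers other than the SLC2 glucose, SLC15 peptide and SLC25 mitochondrial families were examined in RNA sequencing of Lin-Kit+ bone-marrow cells, the fraction that lacks surface markers of mature lineages, carries the Kit receptor and holds stem and progenitor cells. The groups were 2 libraries from Asxl1-/- mice (KO) and 2 from wild-type mice (WT), all of strain C57BL/6. The labels name neither the age or sex of the mice nor how the allele was deleted. They do not say that replicates were separate animals, so p-values measure only the spread between these libraries. ASXL1 is a chromatin regulator whose gene is a frequent target of mutation in human blood disease, and the comparison asked which transcripts differ in progenitors without it. Members were selected on their level: loci named for a solute carrier that reached a normalised read count of 100 in at least 2 libraries, leaving out the iron exporter Slc40a1, the iron importer Slc11a2 and the red-cell anion exchanger Slc4a1. They numbered 152 of 17956 single loci and came from 39 families. Of 251 candidate loci, 99 stayed below that level. The rule set no minimum on the difference between genotypes, but a locus high in 1 genotype alone could pass it. In this way 5 members qualified: Slc5a10+Fam83g and Slc26a8 through KO, and Slc22a17, Slc18a1 and Slc36a2 through WT. Their differences are partly fixed by the rule and are given as a description.

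Solute carriers are membrane proteins that move nutrients, ions, metals and waste products across the plasma membrane or the membranes of organelles, by exchange, by cotransport with sodium or protons, or by facilitated diffusion. Blood progenitors rely on them for the amino acids of rapid growth, for the zinc, copper and manganese of metalloenzymes, and for the ion balance that sets cell volume and pH. Families are numbered by sequence kinship, so relatives often share a substrate but may act on different membranes.

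Single carriers differed between KO and WT cells in both directions, without a shift of the group's median. The fatty acid transporter Slc27a4, the betaine and GABA transporter Slc6a12, the manganese exporter Slc30a10 and the nucleotide sugar transporter Slc35d2 were higher in KO. The metal importer Slc39a14, the potassium-chloride cotransporter Slc12a7 and the organic cation transporter Slc22a3 were lower. In the limma fit across all tested loci, 29 of the 152 members rose and 25 fell at an adjusted p under 0.05, which is 35.5%. The same threshold was passed by 20.9% of all 13764 tested loci and by 24.2% of the 11107 that meet the same level rule. By direction, 19.1% of members rose and 16.4% fell, beside 13.7% and 10.5% of loci that meet the level rule and 11.9% and 8.97% of all tested loci. The members' share was above both backgrounds, and that difference was not tested. Of the 144 members at 100 or more in all 4 libraries, 27 rose and 23 fell. The share among all loci that reach 100 in all 4 libraries was not computed. The 24.2% above rests on a looser level rule, so it is no background for these counts. The median log2 fold change of KO over WT was -0.04 over members and -0.01 over all tested loci. Most changes were small, since 30 of the 54 called members differed by less than 1.5-fold and 11 by at least 2-fold. With upper-quartile scaling 24 members rose and 34 fell, so that 41.4% of calls were higher, against 53.7% with the deposited scaling. All tested loci shifted alike, with 42.6% of their calls higher under upper-quartile scaling, against 57.0% with the deposited scaling.

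**Figure D1:**
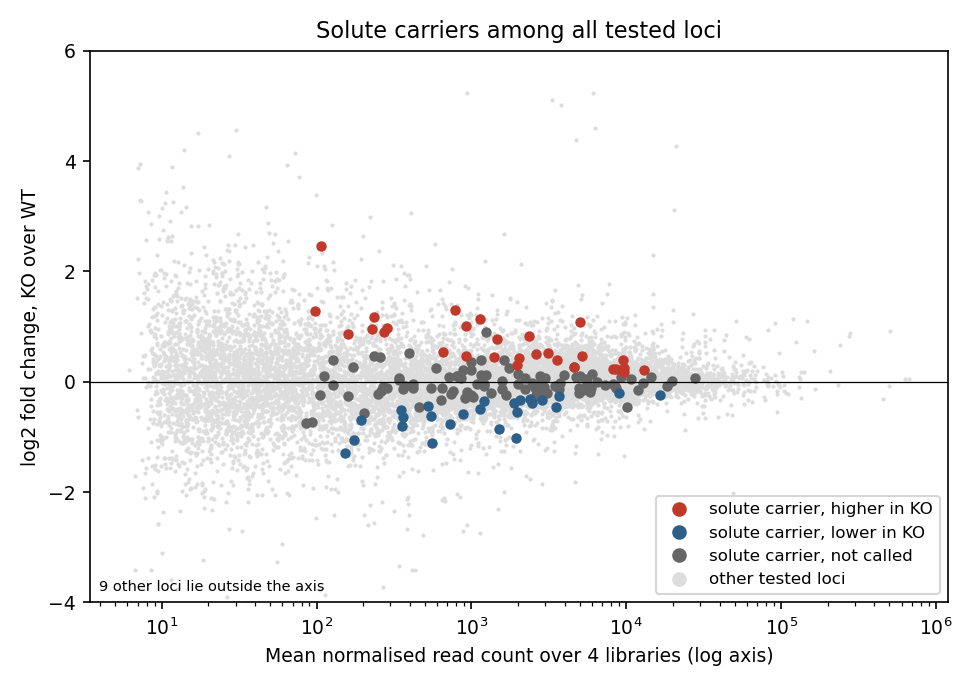
Log2 fold change of KO over WT (vertical axis) against the mean normalised read count over the 4 libraries (horizontal log axis), 1 point per tested locus. The 152 solute carriers lie between -1.28 and 2.46, with 29 called higher (red), 25 called lower (blue) and 98 not called (dark grey); 9 other loci fall outside the axis.

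A call rested on little replication. Leaving out WT replicate 1 ended 43 of the 54 calls, and leaving out WT replicate 2 ended 38. Leaving out KO replicate 1 ended 9, and leaving out KO replicate 2 ended 10. Such a fit takes its spread between libraries from the 2 that remain of the other genotype, and assumes that the single library varies as they do. Calls over all tested loci also fell without a WT replicate and did not fall without a KO replicate. The loss was thus not particular to the carriers. Without a filter on low values 7 calls were lost, those of Slc16a6, Slc16a3, Slc5a3, Slc35e4, Slc37a2, Slc38a10 and Slc9a5, and upper-quartile scaling ended 5, those of Slc16a6, Slc16a3, Slc37a1, Slc39a11 and Slc6a6. Called in all 13 alternative settings were 8 members, namely Slc5a10, Slc6a12, Slc30a10, Slc27a4, Slc35d2, Slc22a15 and Slc17a9, which rose, and Slc39a14, which fell. Slc5a10 had entered through its KO level, so its call is no independent support.

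**Figure D2:**
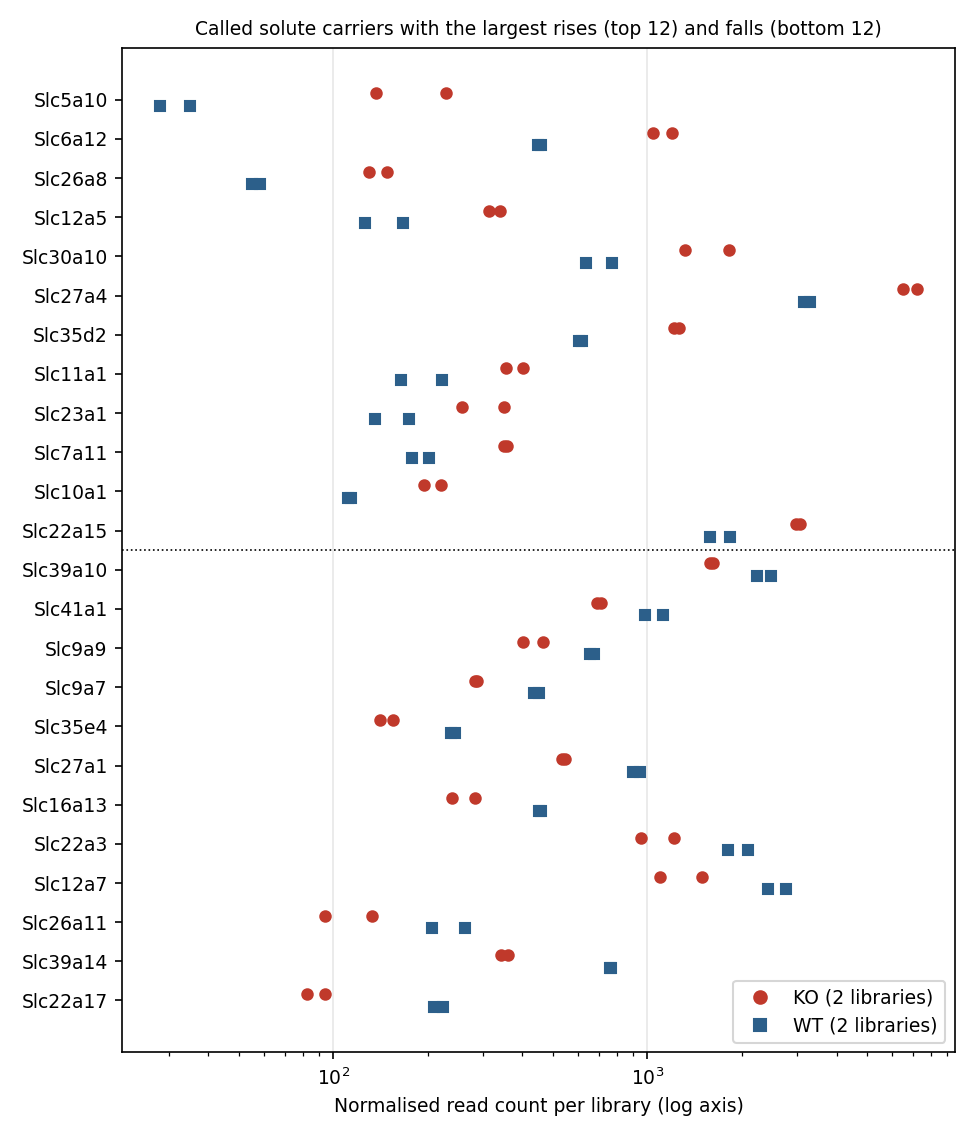
Normalised read counts per library (log axis) of the 12 called solute carriers with the largest rises and the 12 with the largest falls, with 2 KO libraries (circles) above 2 WT libraries (squares) in each row. Rows run from Slc5a10 (log2 2.46) to Slc22a17 (log2 -1.28), which both passed the level rule through 1 genotype alone. KO and WT libraries do not overlap in any row, but the rows were chosen among called members. All 54 called members show this. The share over all tested loci was not computed, so it is no result about the carriers.

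The targeted gene matched the labels: Asxl1 had 146 and 135 in KO libraries, against 9742 and 9472 in WT libraries. The libraries held 83586916 and 76688583 reads in KO and 46597871 and 49764454 in WT, so depth moved with genotype. Xist, the X-inactivation RNA, was 89290 and 147 in KO replicates 1 and 2. In WT replicates 1 and 2 it was 103006 and 2123. The higher value thus lay in replicate 1 of both genotypes. The labels do not name sex, and whether replicates differed in sex was not tested. Such a difference could not be told apart from replicate number. Within both same-numbered pairs, all 54 called members changed in the direction of the pooled fit, which follows from groups that do not overlap. Kit itself (merged locus AK047175+Kit) had 18483 and 18889 in KO against 17739 and 16149 in WT. Transcripts of lineage markers that the gate should remove were present in every library, with Itgam at 45203 and 42795 in KO against 24640 and 26902 in WT, while Cd3e stayed between 9.10 and 32.4. In bulk samples more cells of a type and more RNA per cell cannot be told apart.

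Marker lists of other cell types moved with genotype, and their part in the carrier results was not tested. Summed over 19 neutrophil loci, the level was 2433597 and 2271807 in KO against 1226058 and 1369972 in WT, with 18 of 19 tested loci higher. The erythroid sum was 227251 and 268748 in KO against 155181 and 175589 in WT, with 11 of 18 higher and 0 lower. Megakaryocyte and platelet loci summed to 34874 and 32806 in KO against 19477 and 20385 in WT, with 4 of 16 higher and 0 lower. The B lineage sum was 127080 and 89010 in KO against 170613 and 163442 in WT, with 1 of 17 higher and 8 lower. T and NK loci showed 0 of 21 higher and 7 lower (sums of 11305 and 9786 in KO, 13525 and 12771 in WT), and mast cell and basophil loci 0 of 13 higher and 5 lower (49470 and 45060 in KO, 50258 and 49861 in WT). Monocyte and macrophage loci showed 2 of 18 higher and 5 lower, with sums of 74566 and 69031 in KO and 72083 and 71061 in WT. No locus of these lists was listed at 0 in all 4 libraries.

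The amino acid carriers held 30 members, of which 6 rose and 4 fell. The largest rise was that of Slc6a12 (chromosome 6, 121293105 to 121315791, mm9), the betaine and GABA transporter that cells use as an osmolyte importer. It had 1198 and 1038 in KO libraries, against 449 and 457 in WT libraries. The groups lay far apart, and the log2 fold change was 1.30 ± 0.12 (SE, adjusted p = 0.00222). Its neighbour on chromosome 6, the GABA transporter Slc6a13, had 607 and 686 in KO against 569 and 515 in WT (0.25 ± 0.13, adjusted p = 0.196) and was not called. Slc7a11, the cystine and glutamate antiporter that feeds glutathione synthesis, had 358 and 348 in KO, against 177 and 201 in WT (0.90 ± 0.16, adjusted p = 0.0149). Its obligate heavy chain Slc3a2, known as CD98, rose less, with 8763 and 8857 in KO against 7343 and 7695 in WT (0.23 ± 0.05). Among other light chains of CD98, Slc7a6 fell (2856 and 3055 in KO, 4186 and 3950 in WT, -0.46 ± 0.07), and Slc7a5, the large neutral amino acid transporter, was at -0.05 ± 0.07 and was not called.

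Among the sodium-coupled neutral amino acid transporters, the bidirectional glutamine transporter Slc38a5 rose (3371 and 4033 in KO, 2392 and 2743 in WT) and the glutamine importer Slc38a1 fell slightly (14842 and 15588 in KO, 17359 and 18658 in WT, -0.24 ± 0.06). Slc38a9, the lysosomal arginine sensor upstream of mTORC1, rose in the merged locus AK037026+Slc38a9 (4237 and 3911 in KO, 3136 and 3047 in WT, 0.40 ± 0.07). The most abundant member not called was Slc38a2, a glutamine and alanine importer with 29769 and 27183 in KO against 27037 and 27159 in WT, where the groups differed by less than their spread. Slc1a5, the main glutamine importer of many dividing cells, split the KO pair, with 6817 and 10561 in KO against 11117 and 12177 in WT (-0.46 ± 0.19, adjusted p = 0.141). Without WT replicate 1, 9 of the 10 called amino acid carriers lost the call and Slc6a12 kept it (adjusted p of those lost 0.0661 to 0.239). Without WT replicate 2, 7 lost it (0.0526 to 0.182), and without KO replicate 2 Slc38a10 and Slc6a6, the taurine transporter, lost it (0.0511 to 0.0754).

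The promoter of Slc7a11 is shown because it holds the element through which ATF4, the transcription factor of amino acid shortage, is known to act. The sequence is from RefSeq (GRCm38.p6, chr3:50443564-50443863, minus strand), runs 5′ to 3′ from 250 bases before the start to 50 after it, and has matches to TGATGNAA on either strand in capitals, where N is any base.
Slc7a11: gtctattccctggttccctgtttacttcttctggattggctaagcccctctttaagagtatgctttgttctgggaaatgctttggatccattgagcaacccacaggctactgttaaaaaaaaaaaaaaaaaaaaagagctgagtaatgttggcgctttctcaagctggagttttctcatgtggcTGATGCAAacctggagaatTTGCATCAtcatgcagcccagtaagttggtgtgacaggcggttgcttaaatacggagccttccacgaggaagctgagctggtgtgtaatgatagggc
The matches span bases 185 to 192 and 204 to 211 of the 300 shown. A promoter was found for 118 of the 152 members, 166 sequences in all because some genes have several starts. TGATGNAA occurred in 7 of these 166 (4.22%) and in 3.97% of all 32851 promoters of that length. The carriers with a match were Slc7a11, which rose, Slc9a9, which fell, and Slc1a4, Slc26a10, Slc50a1 and Slc7a7, which were not called. By gene, that is 1 of 23 carriers that rose, 1 of 20 that fell and 4 of 75 that were not called. Atf4 itself had 20417 and 19646 in KO, against 15143 and 16188 in WT (0.36 ± 0.05, adjusted p = 0.00890). A link between Atf4, this element and the level of Slc7a11 was not tested.

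In the list of genes of the amino acid response and of mTORC1 nutrient sensing, 5 of 33 tested loci rose and 4 fell, with a median of -0.02; among all tested loci 11.9% rose and 8.97% fell. Besides Atf4, the asparagine synthetase gene Asns rose (7581 and 8715 in KO, 5320 and 6268 in WT, 0.49 ± 0.10), as did the merged loci with Sesn2 (0.78 ± 0.17), Mlst8 (0.61 ± 0.06) and Tfe3 (0.26 ± 0.07). The serine synthesis genes Phgdh (8829 and 9161 in KO, 11762 and 11445 in WT, -0.37 ± 0.05) and Psat1 (-0.23 ± 0.05), the proline synthesis gene Pycr1 (-0.59 ± 0.15) and the Rag GTPase gene Rragb (-0.95 ± 0.17) fell.

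Carriers of carboxylates and sugars numbered 19, of which 4 rose and 3 fell. The merged locus Slc5a10+Fam83g (chromosome 11, 61486283 to 61534301, mm9) had 136 and 229 in KO libraries, against 35.0 and 28.1 in WT libraries (2.46 ± 0.33), the largest fold change of any member. Slc5a10 is a sodium-coupled sugar transporter known from kidney, and the reads of the locus cannot be divided between it and Fam83g. The locus had entered through its KO level, so its difference is partly fixed by the level rule. Its calls, also those kept in the fits below, are therefore no independent support. Among the proton-coupled monocarboxylate transporters, Slc16a13 fell (282 and 238 in KO, 458 and 451 in WT, -0.81 ± 0.15). The lactate transporter Slc16a1 had 12447 and 13053 in KO against 13283 and 12638 in WT, with overlapping groups, and its chaperone gene Bsg was at -0.01 (adjusted p = 0.946). Slc16a3, the lactate exporter of glycolytic cells, is merged with the kinase gene Csnk1d, and that locus rose by a small margin (13348 and 14640 in KO, 12081 and 12029 in WT, 0.21 ± 0.06, adjusted p = 0.0492). In the SLC37 family of sugar-phosphate exchangers, Slc37a1 rose (2201 and 2142 in KO, 1821 and 1716 in WT) and Slc37a2 fell (443 and 449 in KO, 580 and 633 in WT). In the fits without WT replicate 1 and without WT replicate 2 the call of Slc5a10 was kept and the other 6 were lost (adjusted p 0.106 to 0.200 and 0.0882 to 0.254), while 3 were lost without KO replicate 1 (0.0601 to 0.0769) and 3 without KO replicate 2 (0.0634 to 0.0854). With upper-quartile scaling 1 member of this class rose and 6 fell.

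The nucleoside and vitamin carriers were few. Of 4 nucleoside carriers, the lysosomal transporter Slc29a3 (merged locus Ent3+Slc29a3) fell, with 2018 and 2232 in KO against 2643 and 2650 in WT (-0.32 ± 0.08, adjusted p = 0.0335). The plasma membrane transporter Slc29a1 had 8947 and 10285 in KO against 8692 and 9304 in WT and was not called. Of 9 carriers of vitamins, choline and cofactors 3 rose and 1 fell. The sodium-coupled ascorbate transporter Slc23a1 had 349 and 257 in KO, against 174 and 135 in WT (0.96 ± 0.23, adjusted p = 0.0345), while its relative Slc23a2 was at -0.13 ± 0.07 and not called. The choline transporter Slc44a1 had 781 and 783 in KO, against 539 and 534 in WT (0.54 ± 0.10), with replicates close together in each genotype. Slc46a3, a lysosomal transporter, rose (1016 and 1134 in KO, 728 and 832 in WT), and the locus of the acetyl-CoA transporter Slc33a1 fell (1850 and 1765 in KO, 2349 and 2216 in WT, -0.34 ± 0.07). The merged locus with the haem transporter Slc48a1 had 18519 and 16933 in KO against 18655 and 18653 in WT and was not called. All 5 calls of these classes were lost when WT replicate 1 was left out (adjusted p 0.0762 to 0.207) and when WT replicate 2 was (0.0823 to 0.155). Those of Slc29a3 and Slc23a1 were also lost without KO replicate 1 (0.0524 and 0.0772), and that of Slc46a3 without KO replicate 2 (0.0739).

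Metal carriers had 10 called members among 23, 5 higher and 5 lower. In zinc biology a pair of families work against each other: SLC30 proteins move zinc out of the cytosol and SLC39 proteins move it in. Slc39a14 (chromosome 14, 70703273 to 70751231, mm9), an importer of zinc, manganese and iron that is known to respond to inflammation, had 341 and 360 in KO libraries, against 758 and 763 in WT libraries. It fell with little spread in either group (-1.12 ± 0.12, adjusted p = 0.00340). Slc30a10, which exports manganese despite its family, stood opposite in the merged locus Slc30a10+AK138296 (chromosome 1, 187270994 to 187292640, mm9), with 1317 and 1812 in KO against 636 and 773 in WT (1.14 ± 0.18, adjusted p = 0.0102). The other manganese importer of the family, Slc39a8, was at 0.07 ± 0.08 and not called.

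Within SLC39, 4 of 11 members fell and 1 rose, with upper-quartile scaling 5 and 0. Slc39a10, an importer at the plasma membrane, had 1576 and 1621 in KO, against 2241 and 2469.7 in WT (-0.56 ± 0.08, adjusted p = 0.00795). Slc39a1 (1537 and 1709.8 in KO, 2219.9 and 2018 in WT) and Slc39a6 (2484 and 2619.9 in KO, 3191 and 3211 in WT) fell less, and Slc39a11 rose (5179 and 4806 in KO, 4238 and 4037 in WT). Within SLC30, 6 of 7 members were not called, among them the abundant secretory-pathway transporter Slc30a5 (11399 and 11118 in KO, 12740 and 12122 in WT, adjusted p = 0.0909), which was called lower with upper-quartile scaling. Slc11a1, the phagosomal metal pump of macrophages and neutrophils, had 355 and 403 in KO, against 164 and 222 in WT (0.98 ± 0.20, adjusted p = 0.0224), beside the neutrophil sums given above. The magnesium carriers parted: Slc41a1, an exporter at the plasma membrane, fell (689 and 710.5 in KO, 1124 and 983 in WT, -0.59 ± 0.11) and Slc41a3 rose (1611 and 2086 in KO, 1032 and 1112 in WT, 0.77 ± 0.14). Copper carriers included Slc31a2, which rose (2318 and 2343 in KO, 1818 and 1642 in WT), and the copper importer Slc31a1, which was not called (3461 and 4009.5 in KO, 3787 and 3739 in WT). Without WT replicate 1, 7 of the 10 calls were lost and Slc30a10, Slc39a10 and Slc39a14 kept theirs (adjusted p of those lost 0.0510 to 0.197), without WT replicate 2, 5 were lost (0.0562 to 0.181), and without KO replicate 1 Slc39a1 and Slc39a11 lost theirs (0.0532 to 0.0556).

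**Figure D3:**
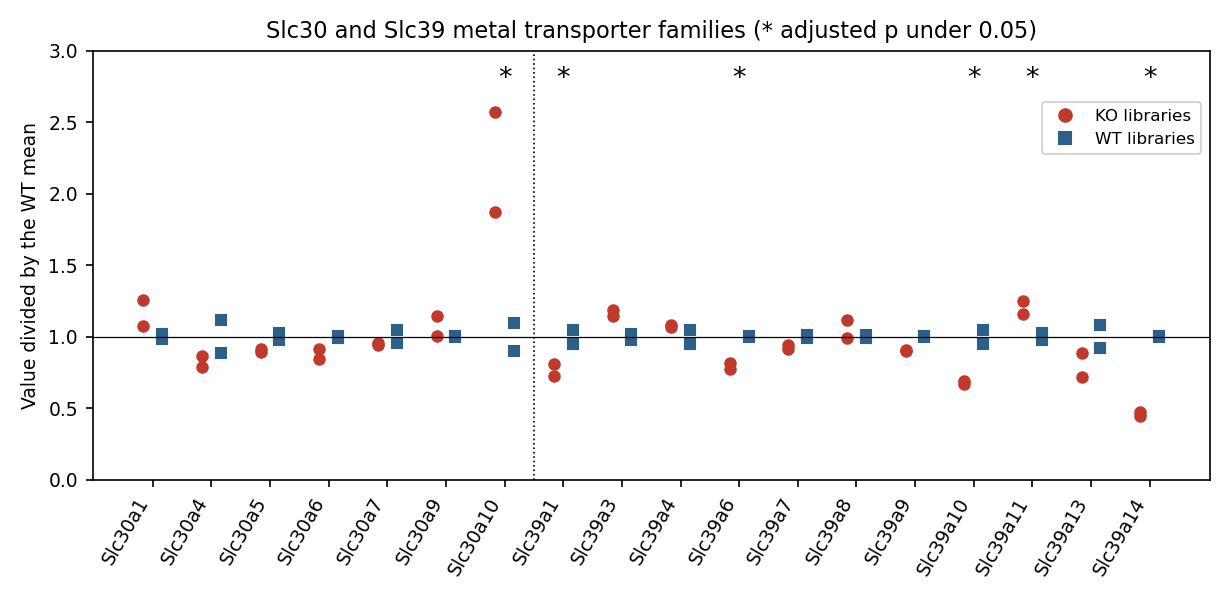
Value in each library divided by the WT mean of the same locus for 7 SLC30 and 11 SLC39 members, KO libraries as circles and WT libraries as squares, with asterisks for an adjusted p under 0.05. The KO libraries of Slc30a10 lie at 1.87 and 2.57 and those of Slc39a14 at 0.448 and 0.473, with the other members between 0.669 and 1.26.

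Carriers of inorganic ions numbered 28, of which 4 rose and 6 fell. The potassium-chloride cotransporters, which let cells shed salt and shrink, showed both directions. Slc12a7 (merged with its older name Kcc4, chromosome 13, 73870541 to 73954190, mm9) had 1492 and 1097 in KO libraries, against 2759 and 2415 in WT libraries (-1.01 ± 0.16, adjusted p = 0.00974). Slc12a5, better known from neurons, had 314 and 339 in KO, against 126 and 167 in WT (1.17 ± 0.20, adjusted p = 0.0140). Of 6 sodium-proton exchangers of the SLC9 family, 3 were called lower, 0 higher and 3 were not called. Slc9a7 of the trans-Golgi network had 286 and 281 in KO, against 436 and 450.0 in WT (-0.64 ± 0.13). Slc9a9 of endosomes had 465 and 400.2 in KO, against 677 and 655 in WT (-0.62 ± 0.13). Slc9a5 was lower by a smaller margin (295 and 287 in KO, 411 and 417 in WT, adjusted p = 0.0458).

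The phosphate importer Slc20a1, also the receptor of a gibbon retrovirus, rose, with 11319.6 and 10238 in KO against 8172 and 8167 in WT (0.40 ± 0.06, adjusted p = 0.00990). Slc24a6, the sodium-calcium exchanger of mitochondria now named Slc8b1, had 6182 and 5873 in KO, against 4640.5 and 4074 in WT (0.47 ± 0.08, adjusted p = 0.0119). Both are abundant transcripts whose groups lay apart. In the SLC26 anion exchangers, Slc26a8, known from sperm, rose (148 and 129.6 in KO, 58.3 and 54.9 in WT, 1.28 ± 0.23) and Slc26a11, a sulfate carrier, fell (94.0 and 133 in KO, 206 and 262 in WT, -1.05 ± 0.25). Slc26a8 had entered through its KO level, so its rise is partly fixed by the level rule. The sulfate carrier Slc26a1 had 1595 and 1574 in KO against 1139.7 and 637 in WT, and missed the threshold with the WT pair far apart (0.89 ± 0.26, adjusted p = 0.0562), although DESeq2 called it. Without WT replicate 1, 9 of the 10 calls were lost and Slc24a6 kept its own (adjusted p of those lost 0.0521 to 0.206), without WT replicate 2, 8 were lost and Slc12a5 and Slc12a7 kept theirs (0.0524 to 0.209). Slc9a5 lost its call without KO replicate 1 and again without KO replicate 2, and Slc26a11 lost its own without KO replicate 1 (adjusted p 0.0565 to 0.0730 over these).

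Promoters of these ion carriers are shown because members that rose and a member that fell hold the same letters, the E-box CACGTG bound by factors such as MYC and TFEB, in capitals. They are from RefSeq (GRCm38.p6, all plus strand) at chr2:164967738-164968037 for Slc12a5, chr13:73763410-73763709 for Slc12a7 and chr2:129198523-129198822 for Slc20a1, each from 250 bases before an annotated start to 50 after it.
Slc12a5: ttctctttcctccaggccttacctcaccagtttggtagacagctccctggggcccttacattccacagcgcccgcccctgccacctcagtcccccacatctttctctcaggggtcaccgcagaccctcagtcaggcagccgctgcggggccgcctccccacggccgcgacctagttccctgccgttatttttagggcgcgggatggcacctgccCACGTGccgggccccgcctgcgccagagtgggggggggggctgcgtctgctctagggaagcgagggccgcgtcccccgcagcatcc
Slc12a7: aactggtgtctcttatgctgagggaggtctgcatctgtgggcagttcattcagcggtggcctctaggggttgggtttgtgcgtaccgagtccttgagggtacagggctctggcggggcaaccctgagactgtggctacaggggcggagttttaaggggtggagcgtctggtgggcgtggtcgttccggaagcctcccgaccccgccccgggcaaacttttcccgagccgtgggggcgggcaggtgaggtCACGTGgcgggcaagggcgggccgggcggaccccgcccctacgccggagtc
Slc20a1: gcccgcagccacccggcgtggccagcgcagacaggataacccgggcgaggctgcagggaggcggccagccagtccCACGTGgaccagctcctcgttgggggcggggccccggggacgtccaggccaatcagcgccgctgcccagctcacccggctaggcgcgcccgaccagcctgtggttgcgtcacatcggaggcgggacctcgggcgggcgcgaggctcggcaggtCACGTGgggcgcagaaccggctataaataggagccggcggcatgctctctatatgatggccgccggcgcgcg
For each gene RefSeq gives 2 promoters, and one with a match is shown; the other promoter of Slc12a5 and that of Slc20a1 hold none, and the other of Slc12a7, which overlaps the one shown, holds 1. Counted from the 5′ end, the match lay at bases 215 to 220 in Slc12a5, which rose, at 250 to 255 in Slc12a7, which fell, and at 76 to 81 and 229 to 234 in Slc20a1, which rose. CACGTG, which reads the same on both strands, occurred in 23 of the 166 promoters of members (13.9%) and in 7.15% of all promoters of that length. By gene, it was present for 6 of 23 carriers that rose, 4 of 20 that fell and 12 of 75 that were not called. The 7.15% counts promoters and a gene may have several, so it is no background for these counts by gene. It does not overlap the other element searched.

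Carriers of nucleotide sugars, the SLC35 family that supplies the Golgi and endoplasmic reticulum with activated sugars for glycosylation, had 20 members, of which 2 rose and 2 fell (2 and 5 with upper-quartile scaling). Slc35d2 (chromosome 13, 64197617 to 64230638, mm9), a Golgi transporter of UDP-N-acetylglucosamine, had 1263 and 1213 in KO libraries, against 620.4 and 607 in WT libraries. It rose with close replicates in both groups (1.01 ± 0.09, adjusted p = 0.00232). Slc35e1 rose by less (10237 and 10781 in KO, 8506 and 9137 in WT, 0.25 ± 0.06), while Slc35e3 (969 and 927 in KO, 1305 and 1350.1 in WT, -0.49 ± 0.09) and Slc35e4 (155 and 141 in KO, 243 and 237 in WT, -0.70 ± 0.17) fell. The substrates of the SLC35E proteins are not established. The most abundant locus not called was Slc35a4+Apbb3, with 7774 and 8659 in KO against 8588 and 8737 in WT. In the fits lacking WT replicate 1 or 2 the call of Slc35d2 was kept and the other 3 were lost (adjusted p 0.0898 to 0.197 and 0.0740 to 0.163), and Slc35e4 lost its call without KO replicate 2 (0.0712).

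Organic ion, bile acid, urea and lipid carriers numbered 19, of which 5 rose and 3 fell. The fatty acid transporters of family SLC27, which also activate their cargo with coenzyme A, moved in opposite directions. Slc27a4 (chromosome 2, 29658199 to 29673042, mm9) had 6504 and 7213 in KO libraries, against 3147 and 3305 in WT libraries (1.09 ± 0.07, adjusted p = 0.00130), with 1.05 in the first same-numbered pair and 1.13 in the second. Slc27a1 had 533 and 547 in KO, against 945 and 898 in WT (-0.77 ± 0.10, adjusted p = 0.00678). Slc27a2 and Slc27a3 were not called.

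The SLC22 organic ion carriers showed the same spread of directions, 2 higher and 2 lower of 7. Slc22a17, a receptor through which cells take up the iron-binding protein lipocalin-2, had 94.0 and 82.5 in KO, against 209 and 223 in WT (-1.28 ± 0.20). Slc22a17 had entered through its WT level, so its fall is partly fixed by the level rule. The transcript of its ligand, Lcn2, had 106807 and 108355 in KO against 51735 and 60380 in WT (0.94, adjusted p = 0.00185). Lcn2 belongs to the neutrophil list, where 18 of 19 tested loci were higher, and a link between the 2 transcripts was not tested. Slc22a3, an organic cation transporter that takes up histamine and other monoamines, had 1211 and 956 in KO, against 1800.2 and 2093 in WT (-0.85 ± 0.14, adjusted p = 0.0117), a change of -0.57 in the first same-numbered pair and -1.13 in the second. Slc22a15 rose (3060.5 and 2962 in KO, 1581 and 1826 in WT, 0.83 ± 0.09, adjusted p = 0.00358), as did Slc22a23 (1510 and 1709 in KO, 1093 and 1277 in WT). The neighbours Slc22a4, Slc22a5 and Slc22a21 on chromosome 11, carriers of ergothioneine and carnitine, were not called, at 0.40, -0.20 and -0.23.

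Slc17a9, which loads ATP into vesicles, had 2975 and 3141 in KO, against 2181 and 2137 in WT (0.50 ± 0.07, adjusted p = 0.00635). Slc10a1, the bile acid importer of liver, was low but higher in KO (194 and 220.3 in KO, 114 and 111 in WT, 0.87 ± 0.19, adjusted p = 0.0277). The urea carrier Slc14a1, which bears the Kidd antigen of red cells in human, had 4660 and 5314 in KO against 4094 and 4215 in WT (0.26 ± 0.08) and missed the threshold (adjusted p = 0.0600; DESeq2 called it), beside the erythroid sums given above. The vesicular monoamine transporter Slc18a2 of mast cells and platelets had 1229 and 1145 in KO against 1162 and 1282 in WT, with overlapping groups. Without WT replicate 1 the calls of Slc10a1, Slc22a17, Slc22a23 and Slc27a1 were lost (adjusted p 0.0593 to 0.207), and without WT replicate 2 those of Slc10a1, Slc22a17, Slc22a23 and Slc22a3 (0.0569 to 0.119). Without KO replicate 2, Slc10a1 and Slc22a23 lost theirs (0.0647 to 0.0747).

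**Figure D4:**
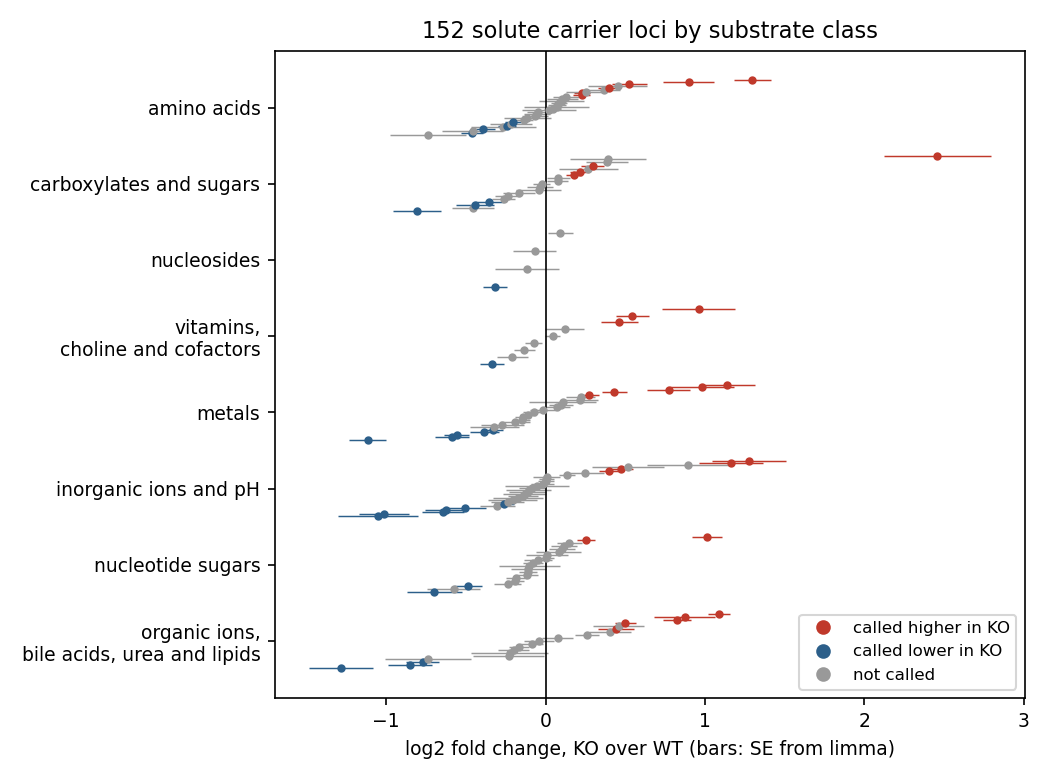
Log2 fold change of KO over WT with its standard error from limma for each of the 152 members, in 8 substrate classes set by family number, coloured by call. Every class with more than 4 members holds called loci on both sides of 0, from -1.28 to 2.46.

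To compare levels between genes, values were divided by the exon length of the gene in GENCODE vM21, which was possible for the 112 members that are not merged with another name. The level per kilobase had a median of 335 over these members and a lowest mean of 18.3. Slc38a2 ranked first, with 6388 and 5833 per kilobase in KO and 5802 and 5828 in WT. The purine base carrier Slc43a3 followed, with 5795 and 5779 per kilobase in KO and 5301 and 5623 in WT, and was not called. Next stood Slc30a5 (mean over the 4 libraries 3726 per kilobase), Slc1a5 (3679), the choline-transporter relative Slc44a2 (2951), Slc16a1 (2904.5), Slc20a1 (2742) and Slc3a2 (2702). Of these 8, Slc20a1 and Slc3a2 rose and the others were not called.

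Partner genes and the related SLCO organic anion transporters, which carry other names, are set here beside the 20.9% called among all tested loci. In the list of partners, chaperones and regulators of these carriers, 2 of 19 tested loci rose and 0 fell. Both encode copper pumps: Atp7b had 2663 and 2915 in KO, against 1862 and 2006 in WT (0.53 ± 0.08), and Atp7a had 1682 and 1495 in KO, against 1281 and 1216 in WT (0.35 ± 0.09). The WNK kinase Wnk1 that governs SLC12 cotransporters was at 0.03 (adjusted p = 0.655). Of 6 tested SLCO loci 1 rose, Slco4c1, with 2890.0 and 2645.5 in KO against 1115 and 1440.4 in WT (1.12 ± 0.13, adjusted p = 0.00473).

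The 5 loci admitted through 1 genotype alone stood as follows. Slc5a10+Fam83g and Slc26a8 reached 100 in both KO libraries and in neither WT library. Slc22a17, Slc18a1 (59.1 and 81.7 in KO, 106 and 128 in WT) and Slc36a2 (66.7 and 60.2 in KO, 101 and 112 in WT) reached it in both WT libraries and in neither KO library, and the last of these also lay closest above the rule together with Slc18a1 and Slc27a2 (91.7 and 103 in KO, 120.4 and 109 in WT). Just below it lay Slc46a1 (77.3 and 51.2 in KO, 90.7 and 91.5 in WT), Slc6a8+CRT (124 and 75.1 in KO, 81.6 and 85.4 in WT) and Slc24a1 (84.1 and 75.1 in KO, 22.0 and 20.7 in WT). Of the 99 candidates below the rule 40 were tested, and 4 of them were called, Slc24a1, Slc23a3, Slc16a8 and Slc9a3, each higher in KO. That is 10%, beside 20.9% called and 11.9% called higher among all tested loci. One member, Slc24a3, lies within 10 Mb of Asxl1 on chromosome 2 and was not called.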

How the data were processed

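RNA was sequenced from 2 KO and 2 WT libraries. Per the submitters' processing notes, reads were aligned with STAR 2.3.1t to mm9; the counter, annotation and handling of strand: not given in the sources used here, so overlapping, antisense and near-identical genes are uncertain. The deposited table holds a signal, whole read counts scaled by the authors with a single factor for each library: 100% of values were multiples, within 0.001 of a read, of a step worth 0.758 and 0.825 in KO and 1.30 and 1.22 in WT. A value of 0 allows 3 reads (2.27 and 2.48 in KO, 3.89 and 3.66 in WT), for counting error only.

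Rows joining loci with a comma (4893 of 22849) were left out. Names merged with + (40 of the 152 members) were kept; their reads cannot be divided, though Kcc4 and Ent3 are older names of the same gene. All 13764 loci at 10 or more in at least 2 libraries entered 1 limma 3.58.1 fit (R 4.3.3; log2(value + 1), which understates changes of low loci; mean-variance trend; Benjamini-Hochberg adjustment over all of them). Fold changes are log2 of KO over WT ± SE. On the recovered reads edgeR 4.0.16 called 2839 loci, against 2875 by limma; DESeq2 1.42.0 was a further alternative. Substrate classes follow family numbers, so a single member may carry something else.

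Named were the 12 largest rises and falls, the 3 smallest p and the most abundant uncalled locus of each class, and loci at the edge of the level rule; other loci were named after their values were seen, and the values of some loci are not reported here. Members, lists and tests were chosen with earlier results of these data known.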

Additional observations from a re-analysis of the deposited data

How the results depend on the processing

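Leaving out 1 library moved the counts most: members called higher ranged from 9 to 28 and members called lower from 3 to 26 over the 4 such fits, the lowest in both cases without WT replicate 1. The fits without a WT replicate kept the fewest of the 54 calls. Calls over all tested loci were also fewest in those fits, and the cause was not tested. The other alternatives kept both counts within 1.5 times: pseudocounts, filters, scaling, edgeR (29 and 25, all 54 calls shared), DESeq2 (34 and 27), other level rules (31 and 25 of 166 loci at 50, 22 and 19 of 117 at 500) and no merged loci (24 and 19 of 112). Replicate numbers are shared between genotypes, and no label says that they pair the samples. Deviations of same-numbered libraries correlated at 0.528 over 11107 loci. Xist was higher in replicate 1 of both genotypes, and the part of sex in this correlation was not tested. With the replicate block 32 members were higher and 27 lower, with 52 of the 54 calls kept. Among the loci named by rule, signs turned for 2 that were not called. With 1 library left out, Slc16a1 ranged from -0.059 to 0.012 and Slc29a1 from -0.0075 to 0.19. Depth limits the low loci: 1 read is worth 1.30 in WT replicate 1, where Slc5a10+Fam83g has 35.0.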
